A study of Rattus norvegicus with 4 samples.

Results

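The values described here are those of 10 genes of microglia and of the complement system (Aif1, Itgam, Cd68, P2ry12, Csf1r, Tyrobp, Trem2, C1qa, C1qb and C3) in the rat hippocampus. The genes were fixed by name, and every noncontrol spot whose accession resolved to one of them in the RefSeq gene table was taken. 9 of the 10 genes had a probe, out of 8899 genes that could be named on the array. C1qa had 2 probes and the other 8 genes 1 each, which gives 10 of 41012 noncontrol probes. No probe matched Trem2, the lipid-sensing receptor that signals through the Tyrobp adaptor, and its level was not analysed here.

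The study asked how voluntary running against a load differs from running without one. Male Wistar rats, 10 weeks old at the start, were kept for 4 weeks in standard cages (sedentary, 10 rats), with a free wheel of no resistance (WR, 8 rats) or with a wheel whose resistance rose to 30% of body weight (RWR, 8 rats). Whole hippocampi were taken the day after the last exercise, RNA was pooled within each group, and the number of rats in each pool is not stated, although the RNA amounts in the methods point to fewer replicates in a pool than rats in a group. Chips 1 and 2 took the WR pool together with the sedentary pool, and chips 3 and 4 the RWR pool with the sedentary pool. All rats lived singly, the runners in wheel cages and the sedentary rats in standard cages, so cage and running cannot be told apart. On chips 1 and 3 the running pool carried Cy5 and the sedentary pool Cy3, and on chips 2 and 4 the dyes were swapped. Both chips of a comparison measured the same pair of pools, so each comparison had 1 biological replicate, no test between the groups was possible, and the number of chips limits the precision.

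Microglia are the resident macrophages of the brain. They survey synapses with motile processes, take up debris and, in the developing hippocampus, prune synapses that have been tagged with complement. C1q, built from the C1qa, C1qb and C1qc chains, opens the classical complement pathway, which leads to the cleavage of C3, and fragments of C3 are bound by complement receptor 3, whose alpha chain is encoded by Itgam. In adult brain tissue most C1q transcript comes from microglia. In RNA of whole tissue, fewer cells of a type and less RNA per cell cannot be told apart.

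In both running groups the microglia and complement genes stayed close to the sedentary level. None of the 9 measured genes was past 1.5-fold above or 0.75-fold below sedentary on both chips with the deposited error-model p under 0.01 on both, in WR or in RWR. That rule called 0.0317% of all probes in WR and 0.0585% in RWR, and a count of 0 among 9 genes is near those shares and is no result about the genes. Without the p-value condition the count was also 0 in both groups, beside 0.549% of all probes in WR and 1.48% in RWR. The 40 single-chip log2 ratios of the 10 probes lay between -0.49 and 0.33, and 31 of them were no larger than their deposited error of 0.20 to 0.23. The lowest of the 40 error-model p-values was 0.032, for Itgam on chip 4, and it was the only one under 0.05. The 3 genes with the widest differences were P2ry12, which was higher in RWR, C3, which was higher in WR than in RWR, and Itgam, which was lower in RWR, mostly on chip 4.

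The probes were well measured. All 10 were marked as clearly over background in Cy3 and in Cy5 on each of the 4 chips, none was saturated and none carried an outlier flag. Over the 10 probes, the processed signal, which is the spot brightness after background subtraction and dye normalization in arbitrary units, ranged from 84.5 to 9719. Signals of different probes depend on the probe and are not set against each other here. 263 noncontrol probes were spotted repeatedly, and those clearly over background (192 to 213 per chip) differed between their spots by a median SD of 0.033 to 0.035 on the log2 scale within a chip.

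The dye swap showed how much of a single ratio belonged to the dye. When all ratios were turned to running over sedentary, those of the 2 chips of a pair were negatively correlated over the 24953 probes that were, like these, clearly over background in Cy3 and Cy5 on every chip (the well measured probes), with Pearson r = -0.677 for WR and -0.581 for RWR, where probes are not independent replicates. The dye part of a ratio, Cy5 over Cy3 averaged over the 4 chips, had a median size of 0.0977 (log2) over those probes. Over the 9 genes its median size was 0.0698, and it was negative at 9 of the 10 member probes, so most of them read higher for running where the running pool was in Cy3. The mean of both chips of a pair cancels this part, and a difference between the running modes at the same dye does not contain it.

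The regions just before the start of C1qa, C1qb, C3 and Itgam are shown. C1qa and C1qb encode chains of C1q and lie close to each other. Their mean RWR ratios were nearly the same (0.12 each), but so was that of Tyrobp (0.12). C3, a later component of the pathway, and Itgam, a chain of the receptor for its fragments, were 2 of the 3 genes with the widest differences. RefSeq lists C1qb, C1qc and C1qa side by side on chromosome 5 of the GRCr8 assembly. Each line gives the 250 bases before the transcription start, 5' to 3' on the strand of the gene. Capitals mark GAGGAA or its reverse complement TTCCTC, the core bound by the myeloid factor PU.1, and TTNNGNAAT or its reverse complement, a C/EBP motif, and neither overlaps the other in these windows. The windows are chr5:154419934-154420183 (minus strand) for C1qa, chr5:154407828-154408077 (minus strand) for C1qb, chr9:2201340-2201589 (minus strand) for C3 and chr1:192089342-192089591 (plus strand) for Itgam.
C1qa: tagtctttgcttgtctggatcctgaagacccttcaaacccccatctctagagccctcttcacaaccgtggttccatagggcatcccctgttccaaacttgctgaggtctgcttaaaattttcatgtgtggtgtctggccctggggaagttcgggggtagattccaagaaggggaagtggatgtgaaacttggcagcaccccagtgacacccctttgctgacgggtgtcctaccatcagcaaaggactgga
C1qb: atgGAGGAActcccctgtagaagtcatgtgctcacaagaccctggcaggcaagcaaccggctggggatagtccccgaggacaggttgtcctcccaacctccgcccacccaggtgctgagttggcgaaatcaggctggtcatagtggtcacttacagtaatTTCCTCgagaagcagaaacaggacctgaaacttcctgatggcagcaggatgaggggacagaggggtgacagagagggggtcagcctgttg
C3: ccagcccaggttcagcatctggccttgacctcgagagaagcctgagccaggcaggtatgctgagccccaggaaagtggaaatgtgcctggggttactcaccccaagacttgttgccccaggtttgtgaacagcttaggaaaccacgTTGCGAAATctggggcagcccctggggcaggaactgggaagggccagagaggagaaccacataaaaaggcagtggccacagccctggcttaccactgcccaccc
Itgam: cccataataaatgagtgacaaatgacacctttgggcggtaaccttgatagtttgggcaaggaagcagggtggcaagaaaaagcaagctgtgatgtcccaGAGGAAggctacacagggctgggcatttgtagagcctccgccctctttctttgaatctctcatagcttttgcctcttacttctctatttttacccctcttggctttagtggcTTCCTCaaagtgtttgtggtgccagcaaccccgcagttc

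7 of the 10 genes had such a window in the RefSeq promoter table, and Aif1, P2ry12 and Tyrobp did not. The PU.1 core was found in 5 of the 7 (C1qb, Cd68, Csf1r, Itgam and Trem2), and in 23.3% of all 33469 windows of this length. The C/EBP motif was found in 2 of the 7 (C3 and Csf1r), against 10.9% of all windows. The interferon response motif (GAAA, any 2 bases, then GAAA again, on either strand) was in none of the 7, against 3.41% of all windows. A match of letters is a description of the window and says nothing of binding in these rats.

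P2ry12, the ADP receptor of resting microglia that steers their processes toward damaged cells, had the highest mean RWR ratio of the 9 genes and the smallest gap between its RWR chips. On chip 1 its signal was 1255 in the sedentary and 1249 in the WR pool, and on chip 2 it was 1127 and 1178. On chip 3 it was 1355 in the sedentary and 1642 in the RWR pool, and on chip 4 it was 1184 and 1450. Both RWR readings were above all 6 readings of the sedentary and WR pools, while the WR readings sat beside their sedentary partners. On the log2 scale the WR ratios were -0.01 and 0.06, with a mean of 0.03, and the RWR ratios 0.28 and 0.29, with a mean of 0.28 or 1.22-fold. Among the 24953 well measured probes, 0.244% were on both RWR chips at or above the lower of these ratios. In either direction, 0.541% were as far from 0 on both. P2ry12 was the most extreme of the 9 genes here. For the other genes of 1 sign on both RWR chips, the share in the gene's own direction ran from 3.41% (C1qb) to 14.4% (Csf1r). The difference was smaller than the fold cutoff, and the error-model p on chips 3 and 4 was 0.179 and 0.156, so that neither chip alone separated it from the deposited error of 0.21. RWR was above WR by 0.28 with the running pools in Cy5 and by 0.23 with them in Cy3, a mean of 0.26 or 1.19-fold.

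Csf1r encodes the receptor for the growth factors CSF1 and IL-34, on which microglia depend for survival. Its signal was 347 in both pools on chip 1, 329.8 sedentary and 338 WR on chip 2, 387 sedentary and 378 RWR on chip 3, and 358 sedentary and 356 RWR on chip 4. That gave log2 ratios of 0.0022 and 0.04 in WR and of -0.03 and -0.01 in RWR. On no chip was the pool of running rats farther than 0.04 from its partner, and RWR minus WR was -0.04 at either dye.

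Tyrobp, the adaptor that carries signals from Trem2 and related receptors, had signals of 3189 sedentary and 3064 WR on chip 1 and of 2773 and 2977 on chip 2. The RWR chips gave 3510 sedentary and 3554 RWR on chip 3, and 2742 and 3203 on chip 4. In these deposited values only chip 1 had the running pool below the sedentary one. The log2 ratios of Tyrobp were -0.06 and 0.10 in WR, mean 0.02, and 0.02 and 0.22 in RWR, mean 0.12. On chip 3 the ratio fell below 0 with normexp (-0.04) and with no background correction (-0.03). RWR was above WR by 0.08 in Cy5 and by 0.12 in Cy3.

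Aif1, which encodes the calcium-binding protein Iba1 used to stain microglia, was on the running side of 0 on all 4 chips. Its signal was 2071 sedentary and 2101 WR on chip 1, 1905 and 2036 on chip 2, 2319 sedentary and 2459 RWR on chip 3, and 1941 and 2201 on chip 4. In log2 these ratios were 0.02 and 0.10 in WR, mean 0.06, and 0.09 and 0.18 in RWR, mean 0.13, all within their deposited errors. On both RWR chips, 3.80% of the well measured probes were at or above the lower of its ratios, and 7.65% were as far in either direction.

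Itgam, the alpha chain of complement receptor 3 (CD11b), read below sedentary on all 4 chips in the deposited ratios. The signal was 106 sedentary and 105 WR on chip 1, 117 and 102 on chip 2, 123 sedentary and 117 RWR on chip 3, and 119 and 84.5 on chip 4. The lowest reading was the RWR pool on chip 4. The log2 ratios of the other 3 chips were within their deposited errors, the widest of them -0.20 on chip 2. As log2 ratios these were -0.01 and -0.20 in WR, mean -0.11, and -0.07 and -0.49 in RWR, mean -0.28 or 0.823-fold. The RWR value rested on chip 4, since without it the value was -0.07, and with another background correction the mean was -0.14 (normexp) or -0.09 (no correction). The difference between the running modes, -0.17, came to 0.0019 and 0.02 under these corrections. Chips 1 and 3 then read above 0, at 0.06 and 0.04 with normexp and at 0.08 and 0.05 with no correction.

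Cd68, a lysosomal glycoprotein of phagocytes, followed the dye more than the group. Its signal was 220.2 sedentary and 186 WR on chip 1, but 169 and 199.8 on chip 2. With RWR it was 245 sedentary and 232 RWR on chip 3, but 201 and 248 on chip 4. The running pool was below the sedentary pool whenever it carried Cy5 and above it whenever it carried Cy3. Its log2 ratios of -0.25 and 0.24 in WR average to -0.0038, and those of -0.08 and 0.30 in RWR to 0.11. Its dye part of -0.22 was the widest of the 9 genes, and RWR minus WR was 0.16 in Cy5 and 0.06 in Cy3.

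**Figure D1:**
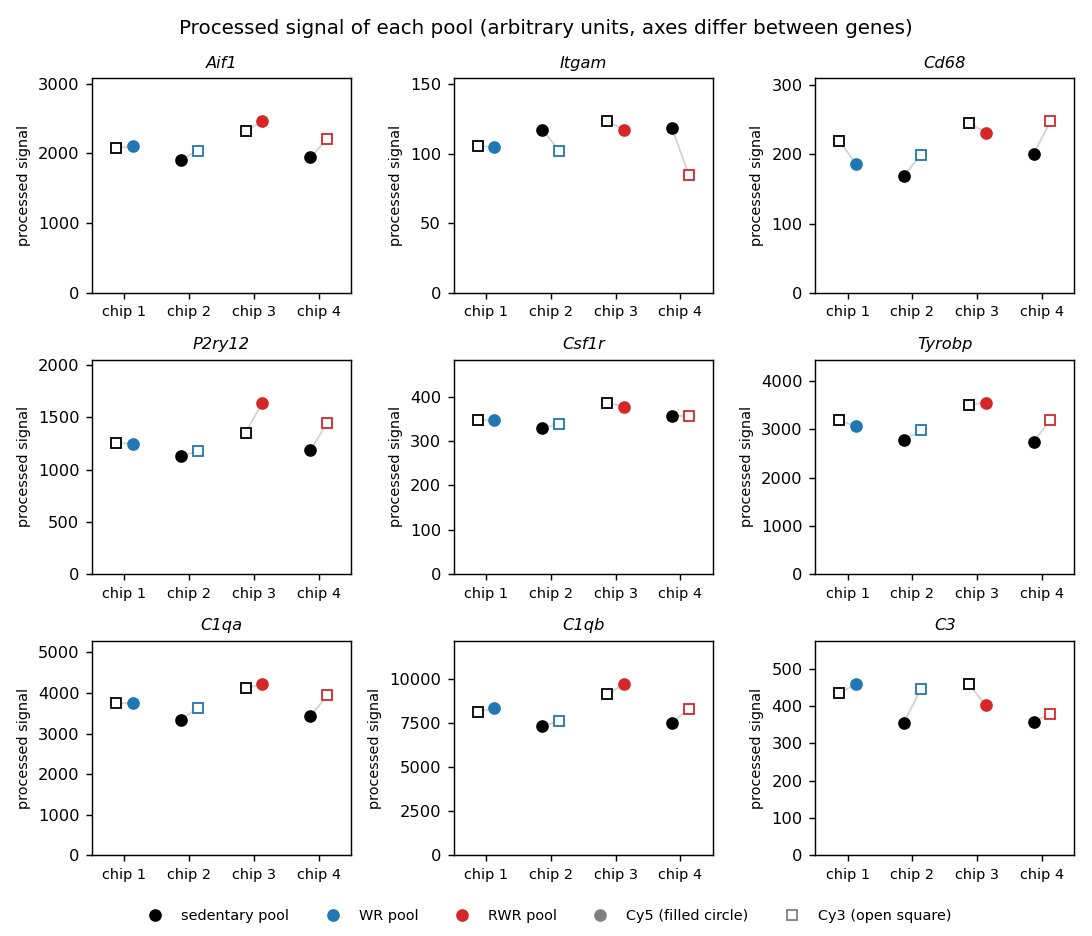
Processed signal (arbitrary units, linear axis from 0, scaled separately for each gene) of the sedentary, WR and RWR pools on each chip for the 9 measured genes, at the brighter C1qa probe. Grey lines join the 2 pools of a chip, filled circles are Cy5 and open squares Cy3; the P2ry12 lines are flat on chips 1 and 2 and climb on chips 3 and 4 (1355 to 1642 and 1184 to 1450), and the Cd68 lines turn with the dye.

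C1qa and C1qb, 2 of the chains of C1q, stayed near 0 in WR and were slightly above it in RWR. At the brighter C1qa probe the signal was 3753 sedentary and 3749 WR on chip 1, 3348 and 3626 on chip 2, 4116 sedentary and 4225 RWR on chip 3, and 3431 and 3942 on chip 4. The log2 ratios were -0.0015 and 0.12 in WR, mean 0.06, and 0.04 and 0.20 in RWR, mean 0.12. The second C1qa probe read -0.06 and 0.15 in WR and -0.05 and 0.24 in RWR, with means of 0.04 and 0.09. The probes of the gene gave similar means, although the second had opposite signs on the chips of each pair.

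C1qb was the steadier of the pair between chips in the deposited ratios. Its signal was 8131 sedentary and 8350 WR on chip 1, 7353 and 7601 on chip 2, 9124 sedentary and 9719 RWR on chip 3, and 7521 and 8319 on chip 4, so the running pool was the higher on all 4. The log2 ratios were 0.04 and 0.05 in WR, mean 0.04, and 0.09 and 0.15 in RWR, mean 0.12. On chip 1 the ratio fell below 0 with normexp (-0.0068) and with no background correction (-0.0090). Of the well measured probes, 7.07% were at or above its lower ratio on both WR chips and 3.41% on both RWR chips. As far in either direction were 13.9% and 6.90%. C1qc, which is no member and was looked up after its neighbours' values had been seen, had log2 ratios of -0.02 and 0.25 in WR and of -0.02 and 0.40 in RWR. The means of all 3 chains were above 0 in both comparisons, at sizes under the deposited error of a single chip.

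C3, the central complement component that is cleaved to tag surfaces, was the gene whose WR and RWR values lay farthest apart in the downward direction. On chip 1 its signal was 435 in the sedentary and 458 in the WR pool, and on chip 2 it was 355 and 446. On chip 3 it was 459 in the sedentary and 401 in the RWR pool, and on chip 4 it was 357 and 379. WR was the higher on both of its chips, and RWR was below its partner on chip 3 and above it on chip 4. For C3 the log2 ratios were 0.08 and 0.33 in WR, mean 0.20 or 1.15-fold, and -0.19 and 0.09 in RWR, mean -0.05. Compared at the same dye, RWR was below WR by 0.27 in Cy5 and by 0.24 in Cy3 on the log2 scale, a mean of -0.26 or 0.838-fold. Of the well measured probes, 1.09% lay at both dyes at least as far below 0 as the smaller of these differences. As far in either direction were 2.21%. None of the single-chip p-values for C3 was under 0.113.

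**Figure D2:**
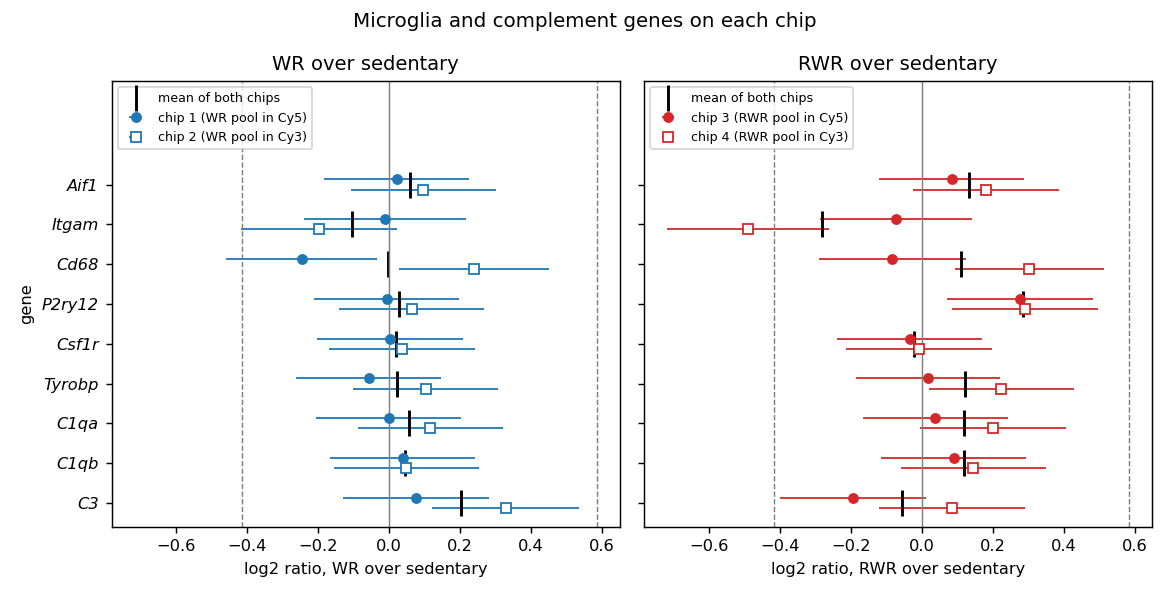
Log2 ratio of running over sedentary for the 9 measured genes, WR on the left and RWR on the right, with 1 marker per chip, its deposited error as a bar, the mean of both chips as a black tick and the 1.5-fold and 0.75-fold cutoffs as dashed lines. Only the Itgam value of chip 4 (-0.49) lies past a cutoff, and most bars cross 0.

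Over the 9 genes, with the brighter probe for C1qa, the median log2 ratio was 0.03 in WR (-0.0015 on chip 1 and 0.10 on chip 2) and 0.12 in RWR (0.02 on chip 3 and 0.18 on chip 4). The same median over the well measured probes was 0.0028 in WR and 0.0020 in RWR. In WR, 4 genes were above 0 on both chips (Aif1, C1qb, C3 and Csf1r), 1 was below it on both (Itgam) and 4 had opposite signs. Over the well measured probes 14.5% were above 0 on both chips and 13.9% below. In RWR, 5 genes were above 0 on both chips (Aif1, C1qa, C1qb, P2ry12 and Tyrobp), 2 were below (Csf1r and Itgam) and 2 had opposite signs, against 16.7% and 16.2% of the well measured probes. These counts hold for the deposited ratios. With normexp or with no background correction, Tyrobp and Itgam had opposite signs in RWR. In WR, C1qb and Itgam then had opposite signs, as had Csf1r with no correction, and C1qa and P2ry12 were above 0 on both chips. The 9 genes are not independent, since several are expressed by the same cells and all were read on the same 2 chips.

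The running modes were compared at the same dye, chip 3 against chip 1 with the running pools in Cy5 and chip 4 against chip 2 with them in Cy3, which assumes that the sedentary pool was the same on all 4 chips. In the deposited ratios each of the 9 genes had the same sign at both dyes. Above 0 were 6 (Aif1, C1qa, C1qb, Cd68, P2ry12 and Tyrobp) and below it 3 (C3, Csf1r and Itgam). Itgam had opposite signs with normexp (-0.02 in Cy5 and 0.03 in Cy3) and with no background correction (-0.02 and 0.05). Of the well measured probes, 28.1% were above 0 at both dyes and 28.9% below. The median difference over the 9 genes was 0.07 (0.05 in Cy5 and 0.08 in Cy3). No gene passed 1.5-fold or 0.75-fold at both dyes, which 0.244% of the well measured probes did. The 2 differences share the pools, so their match repeats the hybridisation and not the experiment.

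**Figure D3:**
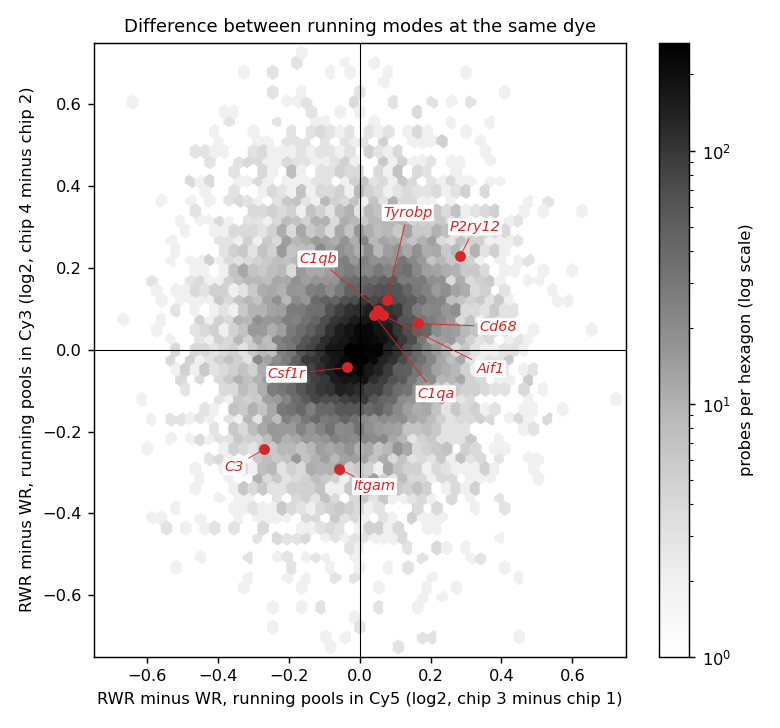
RWR minus WR (log2) with the running pools in Cy5 on the x axis and in Cy3 on the y axis, where grey hexagons count the 24953 well measured probes (log colour scale, axes trimmed to the centre) and red points are the 9 measured genes. P2ry12 (0.28 and 0.23) and C3 (-0.27 and -0.24) lie at the rim of the cloud in opposite corners, and the other genes lie nearer its centre except Itgam in Cy3 (-0.29).

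Other genes of microglia and complement, taken as 7 lists of 120 genes, were also near the sedentary level. 80 of the 120 had a probe, none of these 80 was called in WR or RWR (0.0317% and 0.0585% of all probes were), and none passed the fold cutoffs without the p-value condition either. Over these 80 the median was -0.00022 (log2) in WR and 0.0058 in RWR. In WR, 9 of the 80 were above 0 on both chips, 13 below, 57 had opposite signs and 1 had a ratio of 0 on a chip. In RWR these counts were 13, 10, 55 and 2. Over all named genes, 12.2% were above 0 on both chips and 11.6% below in WR, and 12.5% and 15.7% in RWR, so the counts of the lists were near the background. In each comparison 19 of the 80 probes were not clearly over background in both pools on both chips, and these gave single-chip ratios of up to 2.43 (log2) in size in WR and 3.14 in RWR, against 0.49 at most for the 10 member probes.

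The other homeostatic microglia genes, 7 of 16 with a probe, had medians of 0.01 in WR and 0.0040 in RWR. Of the genes with 1 sign on both chips, Bin2, which binds curved membranes in leukocytes and microglia, was the highest in WR (0.39 and 0.05, mean 0.22) and Slc2a5, a fructose transporter, the lowest (-0.03 and -0.09, mean -0.06). In RWR, Adgrg1, an adhesion receptor, was the lowest (-0.23 and -0.07, mean -0.15). None of the 7 reached the RWR mean of P2ry12: the highest was P2ry13, a related nucleotide receptor named here after its values were seen, at 0.20, from chips that read 0.68 and -0.29.

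The myeloid and lysosomal activation genes, 28 of 40 with a probe, had medians of 0.0030 in WR and 0.02 in RWR. 4 were above 0 on both chips in WR and 5 in RWR, and none was below on both in either, beside 14.5% above and 13.9% below of the well measured probes in WR and 16.7% and 16.2% in RWR. The highest in WR was Fcgr2a, an Fc receptor for immunoglobulin G (0.21 and 0.10, mean 0.16), and the lowest of those with 1 sign was Laptm5, a lysosomal membrane protein (mean 0.05). In RWR the highest with 1 sign was Fcgr3a, another Fc receptor (0.25 and 0.04, mean 0.15). The lowest with 1 sign was Ctss, the lysosomal protease cathepsin S (0.08 and 0.0015, mean 0.04). The Fc receptor genes are closely related in sequence, and their probes may read more than 1 of them.

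The ligands and signalling proteins around Csf1r, Trem2 and Tyrobp, 12 of 16 with a probe, had medians of 0.02 in WR and -0.01 in RWR. Syk, the kinase recruited by Tyrobp, was the highest in WR (0.16 and 0.12, mean 0.14), but had opposite signs in RWR (-0.17 and 0.15). Grap, a Grb2-related adaptor, was the lowest in WR (-0.29 and -0.03, mean -0.16). In RWR the highest was Lyn, a Src family kinase (0.01 and 0.18, mean 0.09), and the lowest Inpp5d, the lipid phosphatase SHIP1 that restrains Syk signalling (-0.33 and -0.06, mean -0.19).

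Complement genes were listed by step of the cascade. The classical and lectin list, 11 of 14 with a probe, had medians of -0.05 in WR and -0.02 in RWR, and C4a, whose product joins the C3 convertase, was its lowest gene in both (-0.24 and -0.08 in WR, -0.38 and -0.07 in RWR). C4a has a near-identical copy, so its probe may read both. Colec12, a scavenger receptor with a collectin domain, was the highest gene with 1 sign, at a mean of -0.11 in WR and 0.02 in RWR. In the alternative and terminal list, 4 of 10 with a probe and medians of -0.04 and -0.05, Cfb, the protease of the alternative C3 convertase, was below sedentary on all 4 chips (-0.26 and -0.19 in WR, -0.32 and -0.12 in RWR, means -0.23 and -0.22). Cfd, which cleaves factor B, was the other gene of 1 sign in WR (-0.21 and -0.06, mean -0.14).

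The complement regulators, 13 of 17 with a probe, had medians of 0.0021 in WR and 0.05 in RWR. Serping1, the C1 inhibitor, was the lowest with 1 sign in both, at a mean of -0.04 in each. Among the complement receptors, 5 of 7 with a probe, C5ar1, the receptor for the anaphylatoxin C5a, was the highest in RWR (0.20 and 0.65, mean 0.42) and had opposite signs in WR (-0.19 and 0.14). C3ar1, the C3a receptor, was the highest in WR (0.28 and 0.18, mean 0.23), and in RWR its dim spot read 0.55 and -0.59. Cd93, first described as a C1q receptor, was the lowest with 1 sign in WR (-0.21 and -0.01, mean -0.11). Calr, the chaperone calreticulin that binds C1q, was the lowest in RWR (-0.04 and -0.01, mean -0.02). The list medians were -0.07 in WR and 0.06 in RWR.

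**Figure D4:**
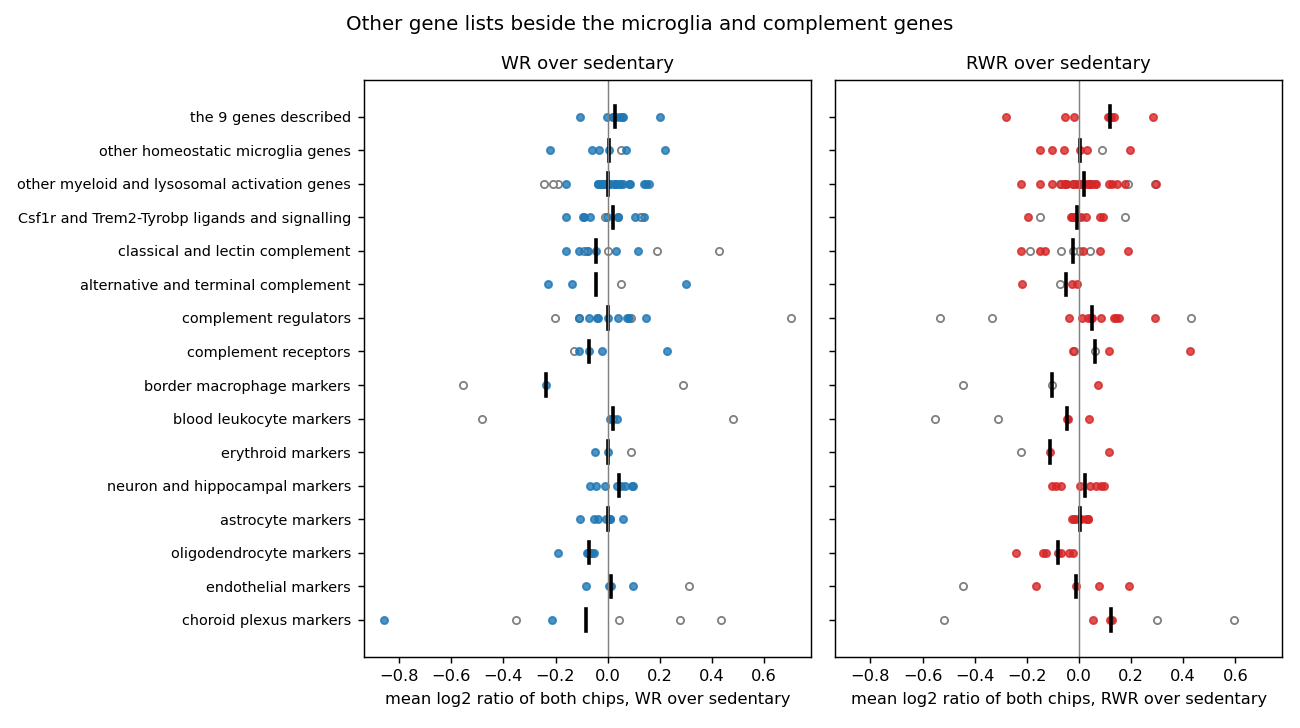
Mean log2 ratio of both chips for each gene of the lists (x axis, WR left and RWR right), with 1 row per list and the median of all its measured genes as a black bar. Filled points were clearly over background in both pools on both chips and open grey points were not, filled points of the microglia and complement lists lie around 0, and the widest filled point is Ttr at -0.86 in WR.

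Markers of other cells were read on the same chips. Among the border macrophage markers, which could also carry Aif1, Csf1r and C1q, 3 of 9 had a probe and 1, Pf4, was clearly over background throughout, with Mrc1, Cd163 and Lyve1 unmatched. The median of these 3 was -0.24 in WR and -0.10 in RWR. Pf4, a platelet chemokine also made by such macrophages, read -0.28 and -0.19 in WR and -0.06 and 0.20 in RWR, and the part of these cells in the values of the 9 genes was not tested. Blood leukocyte markers had 5 of 14 genes with a probe and medians of 0.02 in WR and -0.05 in RWR, and erythroid markers 3 of 6 with medians of 0.0014 and -0.11. Neuron markers (8 of 12; 0.04 and 0.02), astrocyte markers (8 of 8; 0.00040 and 0.0031) and endothelial markers (5 of 8; 0.01 and -0.01) stayed near 0. Oligodendrocyte markers, 7 of 8 measured, had medians of -0.07 in WR and -0.08 in RWR. Of these 7, 4 in WR and 3 in RWR were below 0 on both chips, beside 13.9% and 16.2% of the well measured probes. All 7 means were below 0 in both comparisons, the highest at -0.05 in WR and -0.02 in RWR. None of these lists had a called gene.

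The choroid plexus markers, 6 of 7 with a probe, held the 1 called gene of all lists. Ttr, the thyroid hormone carrier made in the choroid plexus, had a signal of 519.9 sedentary and 315 WR on chip 1, 531 and 267 on chip 2, 581 sedentary and 667 RWR on chip 3, and 535 and 551 on chip 4. On the log2 scale WR gave -0.72 and -0.99 and RWR 0.20 and 0.04. The list's median was -0.08 in WR and 0.12 in RWR, and 2 of its 6 probes were clearly over background in both pools on both WR chips. Summed over the 6 probes, the signal was 619 sedentary and 423 WR on chip 1, 628 and 353 on chip 2, 718 sedentary and 806 RWR on chip 3, and 679 and 709.7 on chip 4. Most of this sum was Ttr. Without it the other 5 probes summed to 99.2 sedentary and 108 WR on chip 1, and to 96.9 and 85.8 on chip 2. The RWR chips gave 136 sedentary and 139 RWR on chip 3, and 144 and 158 on chip 4. Of these 5, only Folr1 was clearly over background in both pools on both WR chips, at -0.07 and -0.36 (log2). A sum of mostly dim probes cannot show whether the low WR level was that of Ttr alone. The part of plexus tissue in the values of the 9 genes was not tested.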

How the data were processed

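The label of each dye gave the group of its RNA. The authors processed the scans of the 60-mer array with Agilent Feature Extraction 11.0.1.1, which subtracted background, normalized the dyes by LOWESS and gave each spot a processed signal. That deposited intensity has arbitrary units. The deposited log10 ratio is Cy5 over Cy3, and the deposited p-value and error describe 1 spot on 1 chip, so they are no test between groups. The deposited flags mark spots well above background, saturated spots and outliers. The deposited series matrix gives, as log10, Cy5 over Cy3 of those signals.

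Control and outlier spots were removed, each ratio was expressed as running over sedentary in log2, and repeated spots were averaged per probe. The call rule, with the cutoffs of the methods, asked for more than 1.5-fold or less than 0.75-fold with p under 0.01, each on the 2 chips of a pair. Accessions of the array, designed on rn4, were matched without version to RefSeq (GRCr8), which named 10768 probes. Of several probes of a gene the brightest was used. Between 67.5% and 82.5% of noncontrol spots were marked as well above background per chip and dye.

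The members and lists were chosen with earlier results of these data known. From each other microglia or complement list the text names called genes and, per comparison, the highest and lowest gene well above background with 1 sign on both chips, and from marker lists called genes. Some list genes that this rule names are not reported here. Alternatives were another background correction with loess (limma 3.58.1, R 4.3.3, normexp offset 50), median centring, series matrix values, filters on dim probes, all probes of a gene, other call rules and each chip left out. Python 3.11.15 was used otherwise.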

Additional observations from a re-analysis of the deposited data

Results flagged for a closer look

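Differences between the running modes drew attention where both WR chips lay on one side of 0 and both RWR chips on the other. These differences were not tested. Csf1r was above sedentary on the WR chips and below it on the RWR chips, and RWR minus WR was -0.0396 (log2), with means of 0.02 and -0.02. With no background correction its chip 1 ratio was -0.0062 and the pattern was lost, while with normexp it stayed (0.0059 on chip 1). Bin2 was above sedentary in WR and below it in RWR, with a difference of -0.32 (0.22 and -0.10). Colec12 went the other way by 0.13 (-0.11 and 0.02), as did Cd93 by 0.22 (-0.11 and 0.11). Ttr, outside the microglia and complement genes, differed by 0.98 (-0.86 and 0.12). Apart from that of Ttr, these means are of the size of the deposited error of a single chip or smaller.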

How the results depend on the processing

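The median log2 ratio of the 9 genes moved by no more than the spread between the chips under every alternative. Part of this was set by the design of the alternatives. All 10 probes passed the filters on dim probes, so these left the medians unchanged. A median without 1 chip is set against a spread made by that chip and its partner. In WR that spread (0.07) was wider than the median itself. The WR median went from 0.03 to 0.04 with normexp and changed sign without chip 2. With each chip left out the median ranged from -0.0015 to 0.10 in WR, from 0.02 to 0.18 in RWR and from 0.05 to 0.08 for RWR minus WR. The count of called genes was 0 in WR throughout. In RWR it was 0 to 1, and the 1 was Itgam on chip 4 alone (without chip 3) with no p-value condition, an alternative added after seeing the data. Among the values of single genes under the alternatives, 228 moved by less than the spread of their chips and 15 by more. All 15 came from the other background corrections. Many of the 228 had no room to move. A mean without 1 of its 2 chips always stays within that spread, and filters that every probe passes change nothing. The 228 are therefore no measure of robustness. P2ry12 in RWR went from 0.28 to 0.25 with normexp and 0.24 with no background correction, and RWR minus WR from 0.26 to 0.20 with either. C3 in RWR minus WR went from -0.26 to -0.23 and -0.22. Itgam in RWR went from -0.28 to -0.14 and -0.09, and the cause was not tested. No paired analysis was possible because each group is 1 pool and no result comes from a test. With 1 pool per group, the spread between rats is unknown, and signal over background limits the dim list genes.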
